A study of Mus musculus with 6 samples.

Results

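The AP-1 and early growth response genes are a group of 10 transcription factor genes, many of which cells switch on within minutes of a stimulus: Fos, Fosb, Fosl1 and Fosl2, Jun, Junb and Jund, Atf3, and Egr1 and Egr3. They were taken by name from the deposited gene tables, which list 40564 genes, and each of the 10 was found. They were measured by bulk RNA sequencing of cells from bronchoalveolar lavage fluid (BALF), that is immune cells rinsed from the mouse lung, in 6 libraries. Cis_Stat6_DKO mice lack Cis and Stat6, Cis_KO mice lack Cis, WT mice carry neither deletion, and each genotype has 2 libraries. CIS, made by the gene Cish, is a feedback inhibitor of cytokine receptor signalling through STAT5, and STAT6 is the transcription factor activated by interleukin-4 and interleukin-13. No group was treated, all 6 libraries carry the same batch date, and the sources used here do not give age, sex, strain or how the genes were deleted. The labels do not say whether the 2 libraries of a genotype came from separate animals, so p-values measure only the spread between libraries, which may be technical.

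AP-1 is a dimer of basic leucine zipper (bZIP) proteins: a FOS protein has to pair with a JUN protein, whereas JUN proteins also pair with each other and with ATF3. Transcription of these genes is turned on by mitogen-activated protein kinases acting on factors already present in the cell, and many of the transcripts decay fast, so their level follows recent signals, including the handling of cells before lysis. In macrophages AP-1 sites lie beside genes for cytokines, chemokines and proteases, ATF3 is known as a brake on inflammatory genes, and EGR proteins are zinc finger factors induced by growth factors and by macrophage colony-stimulating factor.

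The proximal promoters of Atf3, Fos and Jun are shown because these genes are known to be controlled by ATF/CREB-type and AP-1-type elements close to their starts. Each window is the 250 bases before the start of the gene in RefSeq on GRCm38.p6, read 5′ to 3′ on the gene's strand, with the matched element in capitals.
Atf3, chr1:191183334-191183583, minus strand: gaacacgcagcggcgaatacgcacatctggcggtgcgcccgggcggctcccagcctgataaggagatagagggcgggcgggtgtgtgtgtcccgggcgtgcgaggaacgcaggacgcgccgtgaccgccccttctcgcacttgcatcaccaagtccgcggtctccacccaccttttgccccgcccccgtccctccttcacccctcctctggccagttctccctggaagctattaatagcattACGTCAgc
Fos, chr12:85473640-85473889, plus strand: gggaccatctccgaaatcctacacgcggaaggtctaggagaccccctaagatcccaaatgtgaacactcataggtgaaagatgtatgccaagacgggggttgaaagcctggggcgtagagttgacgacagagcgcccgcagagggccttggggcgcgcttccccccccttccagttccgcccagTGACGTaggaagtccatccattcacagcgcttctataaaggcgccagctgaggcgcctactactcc
Jun, chr4:95052223-95052472, minus strand: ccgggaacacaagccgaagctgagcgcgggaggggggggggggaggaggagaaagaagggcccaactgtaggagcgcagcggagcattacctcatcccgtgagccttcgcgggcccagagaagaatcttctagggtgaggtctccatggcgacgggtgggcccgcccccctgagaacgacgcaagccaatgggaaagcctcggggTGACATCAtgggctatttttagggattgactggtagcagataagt
In Atf3 the capitals mark ACGTCA, the ATF/CREB core TGACGT read on the other strand, 8 to 3 bases before the start, which lies inside the longest annotated form of the gene. In Fos they mark TGACGT, 66 to 61 bases before the start. In Jun they mark TGACATCA, the AP-1-like element through which Jun is known to act on its own promoter, 45 to 38 bases before the start. Searched on both strands, TGACGT was present in 6.47% and TGACATCA in 2.93% of 32851 RefSeq promoter windows of the same length. The full cAMP response element TGACGTCA, which contains TGACGT, was in 1.55% and the AP-1 site TGACTCA in 4.46%, and neither was in the windows of the 7 members that had a RefSeq entry (Fos, Fosb, Fosl2, Jun, Junb, Jund and Atf3). The STAT5-type palindrome TTCNNNGAA was in 7.02% of windows and the STAT6-type palindrome, with 1 more base at its centre, in 5.85%, and neither was in those 7. The windows of Fosb and Fosl2 each held 1 EGR site, GCGGGGGCG, a motif (searched together with GCGTGGGCG) found in 3.06% of windows. Such matches describe letters in these windows only, and TGACGT was added to the search after the sequences had been seen. The Jund window ended at 70697738, well before the deposited start of the gene at 70698949. The Fosl2 window, from 32136222 to 32136471, lay inside the gene, whose deposited start is 32135801. Neither window thus holds the bases just before the deposited start.

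The libraries held 50762354 to 65937118 counted reads. Levels are given as CPM, reads scaled to a common library size with edgeR's TMM factors, in the order replicate 1 and replicate 2 within each genotype. Cish, the gene of the first deletion, was at 1.72 and 5.04 CPM in Cis_Stat6_DKO, 4.34 and 3.52 CPM in Cis_KO, and 46.2 and 56.2 CPM in WT, and Stat6 was at 31.6 and 25.5 CPM in Cis_Stat6_DKO, against 221 to 264 CPM in the other 4 libraries. All 11 alveolar macrophage markers were detected in every library, with summed levels of 30412 and 39506 CPM in Cis_Stat6_DKO, 18952 and 14326 CPM in Cis_KO, and 14867 and 22407 CPM in WT. Chil3 made up most of that difference, and the other 10 summed to 8133 and 8378 CPM in Cis_Stat6_DKO, 7382 and 7445 CPM in Cis_KO, and 6090.4 and 7396 CPM in WT. Cis_KO replicate 2 stood apart: it had 15855 genes with a count, against 19641 to 20431 in the others, and 3.29% of its reads were haemoglobin, against at most 0.0366% elsewhere. The 6 erythroid markers summed to 38643 CPM in that library and to 15.0 to 353 CPM in the others, and the 9 neutrophil markers to 538 CPM, against 95.5 to 256 CPM. B and plasma cell markers summed to 97.8 CPM there, against 0.491 to 20.5 CPM, and epithelial markers to 183 CPM, against 12.9 to 86.3 CPM, while T and NK cell, dendritic cell, and fibroblast and endothelial markers summed to at most 21.9 CPM in every library. The fold changes of Fos, Jun, Junb, Jund, Atf3 and Egr1, the variance shares, the medians of the gene lists and the calls of Cxcl2 and Il1b are therefore also given without that library. Values elsewhere are given by library, and the part of these other cells in the results was not tested. In bulk RNA, fewer cells of a type and less RNA per cell cannot be told apart.

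Of the transcripts of the group, those of Jund and Junb had the highest levels per length. On the deposited FPKM scale, which divides by gene length, Jund averaged 72.7 FPKM over the 6 libraries, Junb 47.0, Fos 33.8, Atf3 19.1, Jun 17.3, Fosl2 10.3, Egr1 2.20, Fosb 1.42, Egr3 0.217 and Fosl1 0.030 FPKM. Jund (54.0 to 106 FPKM) lay above Junb (38.0 to 50.8 FPKM) in every library, and Egr1, Fosb, Egr3 and Fosl1 lay below the other 6 in every library. Within single libraries this order was the same in 6 of 6 for Jund over Junb, Jun over Fosl2, Fosl2 over Egr1, Fosb over Egr3 and Egr3 over Fosl1. It held in 5 of 6 for Junb over Fos and for Fos over Atf3, in 4 of 6 for Egr1 over Fosb and in 3 of 6 for Atf3 over Jun, so these neighbours were not separated beyond their spread. The spread between libraries was not alike for all members: Jun, Fosl2, Junb, Fos and Jund spanned 1.49- to 1.70-fold in CPM, whereas Atf3 spanned 4.25-fold, Egr1 4.37-fold, Fosb 4.94-fold and Egr3 7.94-fold.

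**Figure D1:**
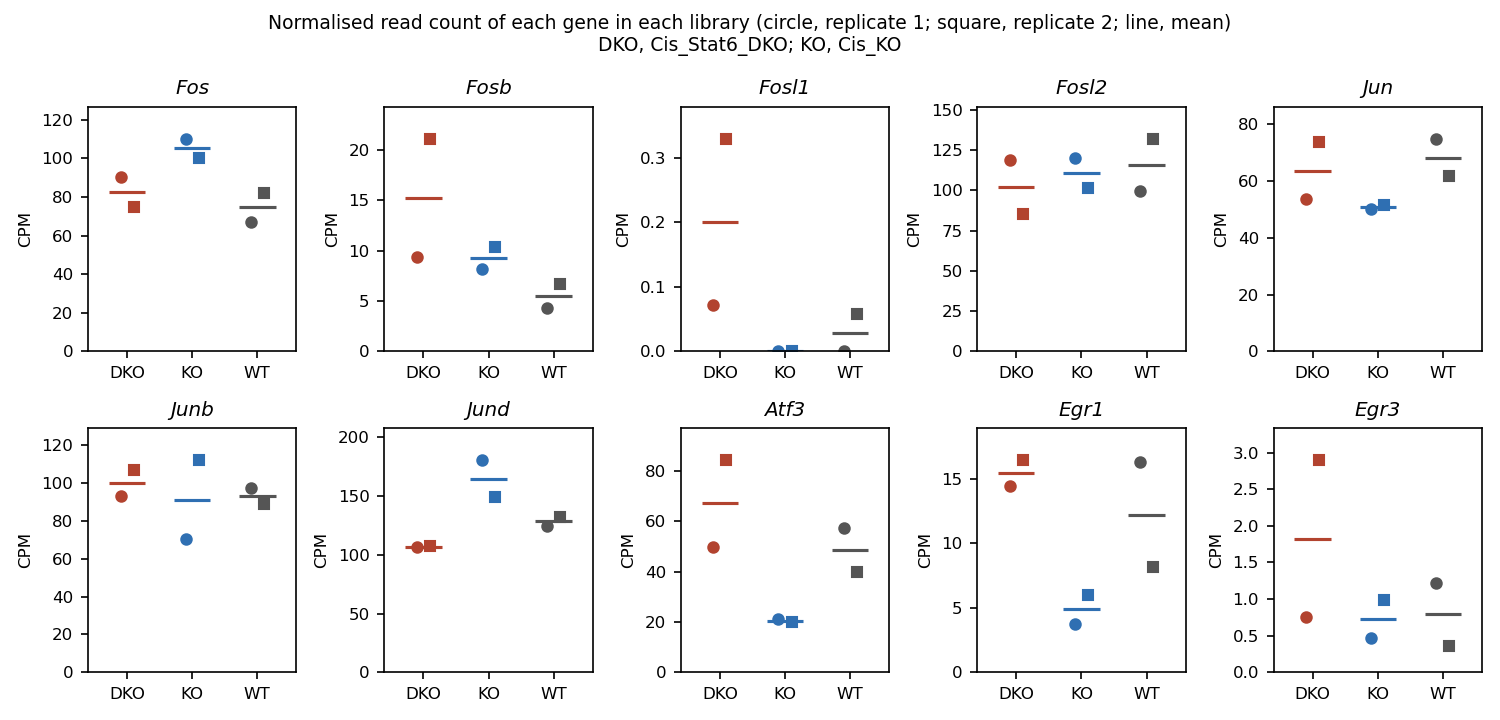
Each panel plots 1 gene in CPM (TMM-scaled, linear axis from 0) for the 2 libraries of each genotype, Cis_Stat6_DKO left, Cis_KO centre and WT right, with the bar at the mean. Atf3 (21.1 and 19.8 CPM) and Egr1 (3.77 and 6.03 CPM) are lowest in both Cis_KO libraries, Jund (181 and 149 CPM) is highest in both, and Junb and Fosl2 show no order by genotype.

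The plainest differences lay in the Cis_KO libraries: Atf3 and Egr1 were lower there than in both other genotypes. Jund was higher there in CPM, though in FPKM Cis_KO replicate 2 lay below WT. The means of Junb and Fosl2 differed little, but the Cis_KO pair held both the lowest and the highest value of Junb. No difference of a member passed the threshold of the test across all genes (edgeR's quasi-likelihood F test, Benjamini-Hochberg adjusted p under 0.05 over 16765 genes). In Cis_KO against WT 0 of the 9 members tested were called, against 0.274% of all genes. In Cis_Stat6_DKO against Cis_KO the count was also 0 of 9, against 0.358%, and in Cis_Stat6_DKO against WT 0 of 9, against 0.131%. At an unadjusted p under 0.05 there were 3 members in Cis_KO against WT (Fos, Atf3 and Egr1; 11.1% of all genes), 3 in Cis_Stat6_DKO against Cis_KO (Atf3, Egr1 and Jund; 18.3%) and 1 in Cis_Stat6_DKO against WT (Fosb; 5.36%). On the same counts DESeq2 called 1 of 9 members in Cis_KO against WT (2.08% of its 26200 genes), 3 of 9 in Cis_Stat6_DKO against Cis_KO (5.94%) and 0 of 9 in Cis_Stat6_DKO against WT (1.23%). The call rule is thus far less strict there than in edgeR, and limma-voom, with or without library quality weights, called 0 in each. The 26200 genes of DESeq2 include low-count genes that edgeR's filter left out, and those without an adjusted p counted as not called. The shares of DESeq2 and edgeR thus have unlike bases. The first 2 comparisons share the Cis_KO libraries, so a low or high Cis_KO value enters both with opposite sign.

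The FOS genes code for the obligate partners of JUN. Fos (chr12:85473890-85477273, plus strand on mm10, as all positions of genes here, 4 exon blocks), the founding member and by FPKM, though not by CPM, the most abundant of the 4, was at 90.5 and 74.7 CPM in Cis_Stat6_DKO, 110.1 and 100.2 CPM in Cis_KO, and 67.0 and 82.1 CPM in WT. Both Cis_KO libraries lay above the other 4, and the Cis_Stat6_DKO and WT ranges overlapped. The log2 fold change of Fos was 0.50 ± 0.20 (SE; 95% interval 0.02 to 0.97) in Cis_KO against WT, with an edgeR adjusted p of 0.437, and -0.35 ± 0.20 in Cis_Stat6_DKO against Cis_KO, with an edgeR adjusted p of 0.383. Without Cis_KO replicate 2 these were 0.56 and -0.42 (edgeR adjusted p = 0.363 and 0.325). The separation depended on the scale: in FPKM, without TMM factors, Fos was at 37.4 and 26.6 in Cis_Stat6_DKO, 45.9 and 33.0 in Cis_KO, and 27.0 and 32.7 in WT, and Cis_KO replicate 2 lay below Cis_Stat6_DKO replicate 1.

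Fosb (chr7:19302696-19310051, minus strand), whose protein is known to persist in truncated form after repeated stimulation in brain, was at 9.33 and 21.1 CPM in Cis_Stat6_DKO, 8.22 and 10.4 CPM in Cis_KO, and 4.28 and 6.72 CPM in WT. It was the member with both WT libraries below the other 4, a pattern of 5.91% of all genes, and Cis_Stat6_DKO replicate 2 had the highest level. Its log2 fold change in Cis_Stat6_DKO against WT was 1.47 ± 0.46 (95% interval 0.37 to 2.57; edgeR adjusted p = 0.669) and was 0.76 without Cis_Stat6_DKO replicate 2. Without the filter on low counts, edgeR's adjusted p for this difference was 0.025. Fosl2 (chr5:32135801-32157842, plus strand), which codes for FRA-2, was at 119 and 85.3 CPM in Cis_Stat6_DKO, 119.9 and 101 CPM in Cis_KO, and 99.3 and 132 CPM in WT, and no 2 genotypes were separated. The 95% interval of its log2 fold change was -0.64 to 0.52 in Cis_KO against WT and -0.70 to 0.46 in Cis_Stat6_DKO against Cis_KO.

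Fosl1 (chr19:5447547-5455946, plus strand), which codes for FRA-1, did not pass the filter on low counts and was not tested. It had 5 and 16 reads in Cis_Stat6_DKO, 0 and 0 reads in Cis_KO, and 0 and 4 reads in WT. Both Cis_Stat6_DKO libraries lay above the rest, though replicate 1 had only 5 reads against 4 in WT replicate 2. For a bound, 3 reads over the Cis_KO pair were taken as the limit that a count of 0 allows. The lower bound on the fold of the Cis_Stat6_DKO pair over the Cis_KO pair was then 6.40. This value covers the counting error of the 0 reads only. It takes the 21 Cis_Stat6_DKO reads as exact, and 16 of them came from replicate 2. Its exons share 1163 bases with Ccdc85b on the opposite strand, a gene with 435 to 897 reads, so these few reads cannot be assigned with certainty because the use of strand is not given.

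**Figure D2:**
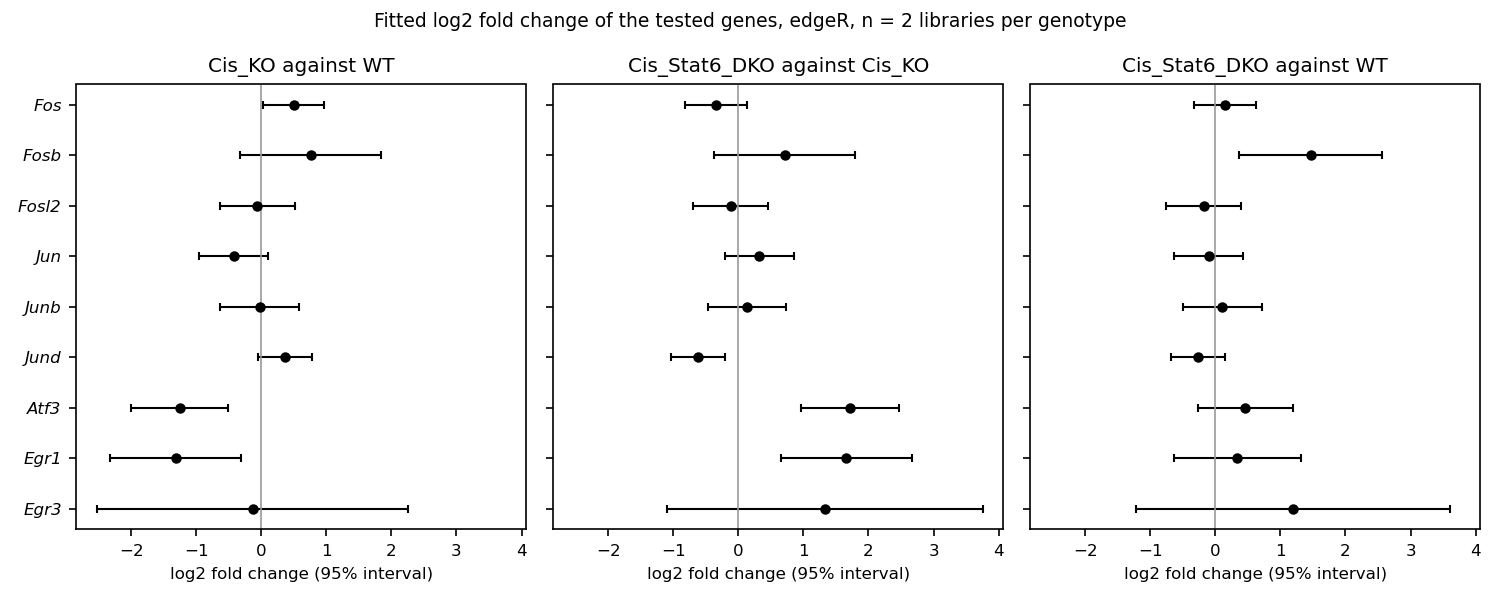
Points are log2 fold changes of the 9 tested members in 3 comparisons (Cis_KO against WT, Cis_Stat6_DKO against Cis_KO, Cis_Stat6_DKO against WT) and bars their 95% intervals from edgeR's fit of all 6 libraries. Intervals clear of 0 belong to Fos, Atf3 and Egr1 in Cis_KO against WT, to Atf3, Egr1 and Jund in Cis_Stat6_DKO against Cis_KO and to Fosb in Cis_Stat6_DKO against WT, and none passed the adjusted threshold.

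Of the JUN genes, Jund, which unlike Jun and Junb is known to be expressed steadily in unstimulated cells, followed the genotypes most closely in CPM, though Jun did so in FPKM. Jund (chr8:70698949-70700616, plus strand, 1 exon) was at 106 and 108 CPM in Cis_Stat6_DKO, 181 and 149 CPM in Cis_KO, and 125 and 132 CPM in WT. It was the 1 member of 9 in which all 3 genotypes were apart from each other, Cis_KO highest and Cis_Stat6_DKO lowest, an arrangement (in any order) held by 17% of all genes. Its log2 fold change was 0.36 ± 0.17 in Cis_KO against WT (95% interval -0.06 to 0.78; edgeR adjusted p = 0.463), -0.62 ± 0.17 in Cis_Stat6_DKO against Cis_KO (95% interval -1.04 to -0.21; edgeR adjusted p = 0.186) and -0.27 ± 0.17 in Cis_Stat6_DKO against WT (edgeR adjusted p = 1). In Cis_Stat6_DKO against Cis_KO it passed the threshold when either Cis_KO library was left out, with a log2 fold change of -0.47 (edgeR adjusted p = 0.0424) without replicate 1 and -0.77 (edgeR adjusted p = 0.0396) without replicate 2. The threshold itself moved in those fits, which called 5999 of 18602 genes without replicate 1 and 495 of 18466 without replicate 2, against 60 of 16765 with both, and which assume that the lone library varies like the other groups. DESeq2 gave an adjusted p of 0.0277. In FPKM Jund was at 61.9 and 54.0 in Cis_Stat6_DKO, 106 and 69.1 in Cis_KO, and 70.9 and 74.1 in WT, so on that scale Cis_KO replicate 2 lay below WT while both Cis_Stat6_DKO libraries stayed lowest.

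Jun (chr4:95049034-95052222, minus strand, 1 exon), the partner of FOS in the classical AP-1 dimer, was at 53.5 and 73.6 CPM in Cis_Stat6_DKO, 50.2 and 51.4 CPM in Cis_KO, and 74.7 and 61.6 CPM in WT. Both Cis_KO libraries were lowest, but Cis_Stat6_DKO replicate 1 was close to them. The log2 fold change of Jun was -0.42 ± 0.22 in Cis_KO against WT and 0.32 ± 0.22 in Cis_Stat6_DKO against Cis_KO, with edgeR adjusted p of 0.475 and 0.462, and -0.44 and 0.33 without Cis_KO replicate 2. Junb (chr8:84976910-84978718, minus strand), which is known to restrain JUN and is induced together with it, was at 93.3 and 107 CPM in Cis_Stat6_DKO, 70.1 and 112 CPM in Cis_KO, and 97.0 and 88.6 CPM in WT. The Cis_KO pair held its lowest and its highest value, and its 95% interval was -0.63 to 0.58 in Cis_KO against WT and -0.47 to 0.74 in Cis_Stat6_DKO against Cis_KO. Without Cis_KO replicate 2 its log2 fold changes were -0.40 and 0.50 (edgeR adjusted p = 0.493 and 0.183). Reads of Jun and Junb may include some of Junos and Prdx2, which overlap their exons on the opposite strand by 232 and 173 bases. Prdx2 had 5936 and 4117 reads in Cis_Stat6_DKO, 3896 and 5346 in Cis_KO, and 3704 and 4849 in WT. Junb had 4485 to 6455 reads, and the part of Prdx2 in them was not tested.

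Atf3 (chr1:191170296-191218039, minus strand, 5 exon blocks), the stress-induced partner of JUN proteins whose promoter element is printed above, had the smallest p of the group in both comparisons with Cis_KO. It was at 49.9 and 84.4 CPM in Cis_Stat6_DKO, 21.1 and 19.8 CPM in Cis_KO, and 57.5 and 40.0 CPM in WT. The Cis_KO libraries were close to each other and below the other 4, while the Cis_Stat6_DKO and WT ranges overlapped. On the FPKM scale the order was the same, with 22.5 and 32.8 FPKM in Cis_Stat6_DKO, 9.60 and 7.13 FPKM in Cis_KO, and 25.3 and 17.3 FPKM in WT. Its log2 fold change was -1.25 ± 0.31 in Cis_KO against WT (95% interval -1.996 to -0.508), with an edgeR p of 0.00563 and an adjusted p of 0.309. It was 1.71 ± 0.31 in Cis_Stat6_DKO against Cis_KO (95% interval 0.96 to 2.47), with an edgeR p of 0.00115 and an adjusted p of 0.101, and 0.46 ± 0.31 in Cis_Stat6_DKO against WT (95% interval -0.27 to 1.19).

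DESeq2 called both differences of Atf3 from Cis_KO, with adjusted p of 0.0122 against WT and 5.05e-05 for Cis_Stat6_DKO. Without the library that stood apart, Cis_KO replicate 2, its log2 fold changes were -1.21 in Cis_KO against WT and 1.66 in Cis_Stat6_DKO against Cis_KO (edgeR adjusted p = 0.234 and 0.0571). Without Cis_KO replicate 1 they were -1.31 and 1.76 (edgeR adjusted p = 0.031 and 0.0102). The size of the difference thus moved little with the choice of Cis_KO library, and its side of the threshold changed.

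The EGR genes code for zinc finger factors that recognise GC-rich sites. Egr1 (chromosome 18), the more abundant of the 2 members though below its relative Egr2 (42.0 to 55.8 CPM) in every library, was at 14.4 and 16.5 CPM in Cis_Stat6_DKO, 3.77 and 6.03 CPM in Cis_KO, and 16.3 and 8.13 CPM in WT. Both Cis_KO libraries were lowest, and the WT libraries were far apart, replicate 2 being nearer to Cis_KO replicate 2 than to WT replicate 1. Its log2 fold change was -1.32 ± 0.42 in Cis_KO against WT (95% interval -2.32 to -0.32; edgeR adjusted p = 0.417) and 1.66 ± 0.42 in Cis_Stat6_DKO against Cis_KO (95% interval 0.65 to 2.66; edgeR adjusted p = 0.165). For Cis_Stat6_DKO against Cis_KO the adjusted p was 0.00689 in DESeq2, and in edgeR 0.0552 without Cis_KO replicate 2 and 0.0432 without Cis_KO replicate 1. In Cis_KO against WT the log2 fold change was -0.74 without WT replicate 1 and -1.74 without WT replicate 2, so the size of that difference depended on which WT library was used, and it was -1.69 (edgeR adjusted p = 0.158) without Cis_KO replicate 2. Egr3 (chr14:70077203-70082614, plus strand), which acts with Egr2 to limit lymphocyte activation, was near the lower end of detection at 0.751 and 2.90 CPM in Cis_Stat6_DKO, 0.469 and 0.982 CPM in Cis_KO, and 1.22 and 0.365 CPM in WT (25 to 141 reads a library). All 3 genotypes overlapped, and the 95% interval of its log2 fold change ran from -2.53 to 2.26 in Cis_KO against WT and from -1.09 to 3.76 in Cis_Stat6_DKO against Cis_KO, too wide to show a difference of the size seen for Egr1.

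Whether the members followed the genotype or a single library was described in 3 ways, without a test. In the first, 5 of 9 members had both Cis_KO libraries outside the other 4 against 31% of all genes: Fos and Jund lay above (14.3% of all genes) and Jun, Atf3 and Egr1 below (16.8%). In FPKM there were 3 of 9 (Jun, Atf3 and Egr1), against 26.8%. Taken alone, Cis_KO replicate 1 lay outside those 4 libraries for 6 of 9 members (47.5% of all genes) and Cis_KO replicate 2 also for 6 of 9 (73.4%). Groups did not overlap for 6 of 9 members in Cis_KO against WT (47.4% of all genes), 5 of 9 in Cis_Stat6_DKO against Cis_KO (50.4%) and 2 of 9 in Cis_Stat6_DKO against WT (46.8%).

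In the second, the share of the variance of log2 CPM that lay between genotypes was 90.0% for Jund, 87.4% for Atf3, 80.5% for Egr1, 74.6% for Fos, 66.8% for Fosb, 56.1% for Jun, 30.1% for Egr3, 13.8% for Fosl2 and 10.5% for Junb. The median of the 9 was 66.8%, against 52.6% over all genes, and 72.8% against 65.7% without Cis_KO replicate 2. On the log2 FPKM scale it was 60.2% against 47.7%. Single members moved more: on that scale Fos was at 38.2%, Jund at 60.2%, Jun at 70.3% and Junb at 44.8%, and without Cis_KO replicate 2 Junb was at 86.5% and Jun at 46.7%. Atf3 (80.6% to 89.2%) and Egr1 (80.5% to 84.4%) stayed high under both. With 3 groups of 2 libraries, this share is large for many genes whatever their level.

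In the third, the library farthest from the median of the other 5 was Cis_KO replicate 2 for 55.4% of all genes but for 1 of 9 members, Atf3. It was Cis_KO replicate 1 for Junb, Jund and Egr1 (8.99% of all genes), Cis_Stat6_DKO replicate 2 for Fosb, Fosl2 and Egr3 (17.1%) and WT replicate 1 for Fos and Jun (6.50%). The 2 Cis_KO libraries differed by a median of 0.28 log2 units over the members and 0.68 over all genes, the Cis_Stat6_DKO libraries by 0.46 and 0.30, and the WT libraries by 0.41 and 0.22. These are medians: Junb (0.68) and Egr3 (1.014) were as far apart as genes in general or farther in the Cis_KO pair, and Jund (0.02) and Junb (0.20) were closer than genes in general in the Cis_Stat6_DKO pair. No library was the farthest for more than 3 of the 9 members.

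**Figure D3:**
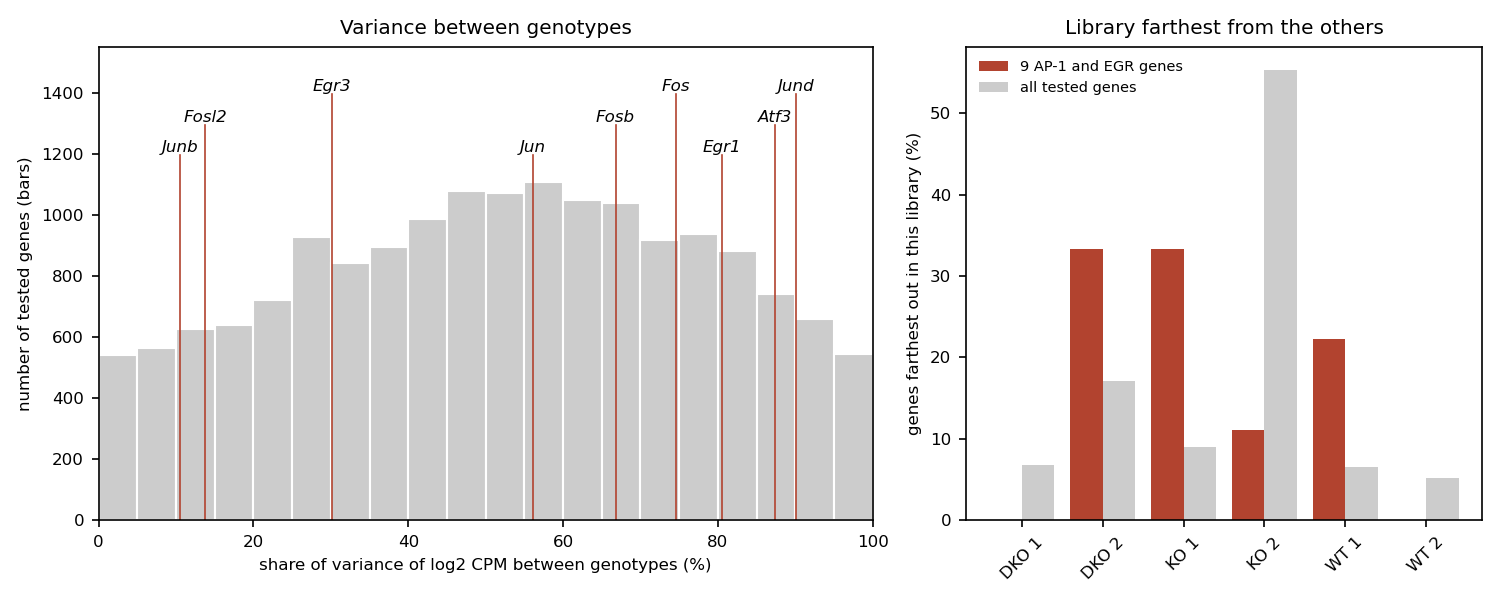
One panel gives the share of the variance of log2 CPM between genotypes, in percent, for each tested member above the distribution over all 16765 genes, and the other the percentage of the 9 members and of all genes for which each library (DKO, Cis_Stat6_DKO; KO, Cis_KO) was farthest from the rest. Members range from 10.5% (Junb, 86.5% without Cis_KO replicate 2) to 90.0% (Jund, 60.2% on log2 FPKM), and Cis_KO replicate 2 is farthest for 55.4% of all genes but for 1 of 9 members.

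The make-up of the possible AP-1 pool was compared as shares of the summed FPKM of the 8 FOS, JUN and ATF3 genes, which do not depend on scaling between libraries. JUN genes made up 68.0% ± 3.52 (SD over 6 libraries) and FOS genes 22.5% ± 3.21. Without division by gene length JUN genes made up 53.4%, since Fosl2 is long. Atf3 was 11.2% and 17.0% of the sum in Cis_Stat6_DKO, 4.20% and 3.98% in Cis_KO, and 12.2% and 8.60% in WT, so that both Cis_KO libraries were lowest. Jund was 30.7% and 28.1% in Cis_Stat6_DKO, 46.5% and 38.6% in Cis_KO, and 34.3% and 36.7% in WT, and here the 3 genotypes were apart from each other. The ratio of Atf3 to Fos in FPKM was 0.602 and 1.23 in Cis_Stat6_DKO, 0.209 and 0.216 in Cis_KO, and 0.937 and 0.531 in WT. The ratio of Jund to Jun was 3.80 and 2.80 in Cis_Stat6_DKO, 6.88 and 5.54 in Cis_KO, and 3.20 and 4.10 in WT. These are ratios of transcripts, not of proteins or dimers.

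**Figure D4:**
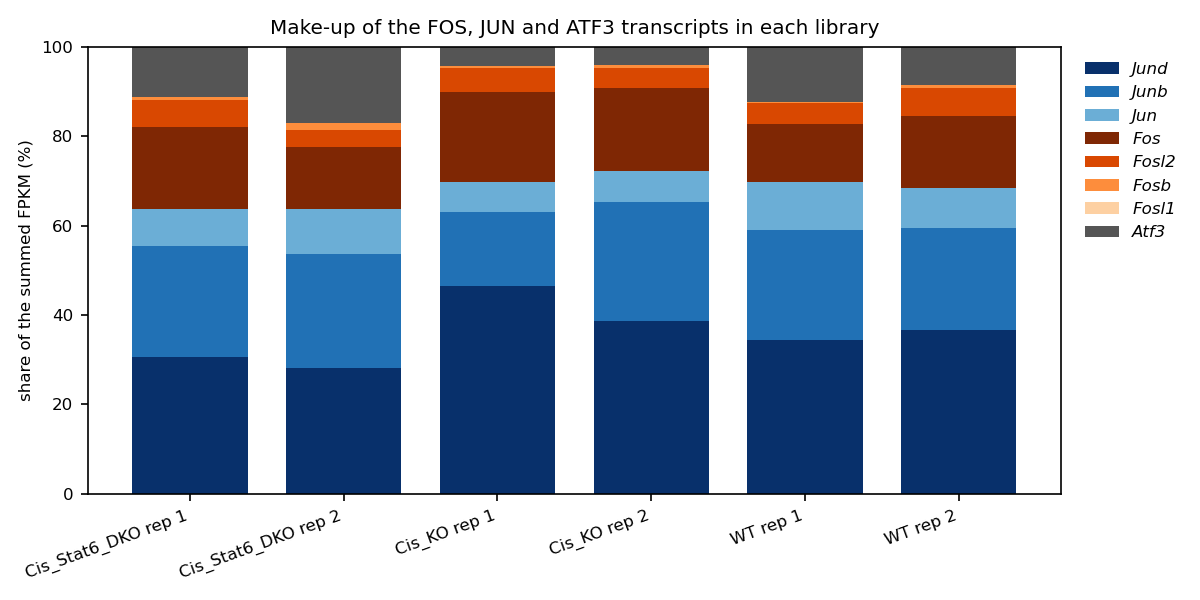
Stacked bars give each FOS, JUN and ATF3 gene as a percentage of the summed FPKM of the 8 genes, 1 bar per library, with Cis_Stat6_DKO left, Cis_KO centre and WT right. Atf3 takes 4.20% and 3.98% in the Cis_KO libraries and 8.60% to 17.0% in the other 4, and Jund takes 46.5% and 38.6% in Cis_KO and 28.1% to 36.7% elsewhere.

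Genes related to the members by function were read from the same fit. The 27 other immediate early genes, which respond to the same kinases, had a median log2 fold change of -0.03 in Cis_KO against WT, -0.0045 in Cis_Stat6_DKO against Cis_KO and 0.0020 in Cis_Stat6_DKO against WT, and edgeR called 0 of 27 in each (5, 11 and 3 at an unadjusted p under 0.05; the lists were read from edgeR alone). Over all genes the medians were -0.05, 0.05 and -0.0027. Of all genes edgeR called 0.274%, 0.358% and 0.131%, and 11.1%, 18.3% and 5.36% had an unadjusted p under 0.05. These shares apply beside the lists below too. Without Cis_KO replicate 2 the median of the 27 genes was 0.02 in Cis_KO against WT and -0.06 in Cis_Stat6_DKO against Cis_KO. Ppp1r15a (GADD34), which reverses the translational block of the stress response, was at 20.8 and 27.7 CPM in Cis_Stat6_DKO, 8.24 and 10.3 CPM in Cis_KO, and 21.9 and 20.1 CPM in WT. Dusp5, a phosphatase that turns off ERK, was at 27.3 and 18.9 CPM in Cis_Stat6_DKO, 63.2 and 61.2 CPM in Cis_KO, and 67.7 and 77.2 CPM in WT. Ppp1r15a thus had the arrangement of Atf3, lowest in both Cis_KO libraries, and Dusp5 was lowest in both Cis_Stat6_DKO libraries, with edgeR adjusted p of 0.0957 and 0.0828 in Cis_Stat6_DKO against Cis_KO, and 0.0205 and 0.0213 without Cis_KO replicate 2 (2.68% of all genes called). Cis_KO replicate 2 was the farthest library for 11 of these 27 genes.

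Heat shock chaperones are induced by heat and by misfolded protein. Of 12, edgeR called 0 in each comparison (5, 5 and 1 at an unadjusted p under 0.05), with a median log2 fold change of -0.58 in Cis_KO against WT, 0.50 in Cis_Stat6_DKO against Cis_KO and -0.06 in Cis_Stat6_DKO against WT, and of -0.46 and 0.57 in the comparisons with Cis_KO without its replicate 2. Their median level, in log2 units from the mean of the 6 libraries, was 0.07 and 0.18 in Cis_Stat6_DKO, -0.29 and -0.48 in Cis_KO, and 0.21 and 0.20 in WT. Hspa1a, the inducible HSP70, was at 145 and 211 CPM in Cis_Stat6_DKO, 56.9 and 24.8 CPM in Cis_KO, and 323 and 183 CPM in WT. Dnaja1 was at 112 and 144 CPM in Cis_Stat6_DKO, 81.3 and 53.6 CPM in Cis_KO, and 117 and 114 CPM in WT. Over the 12 genes, log2 fold changes in Cis_KO against WT ran from -2.63, that of Hspa1a, to 2.49. Atf3 and Egr1 were thus low in the same 2 libraries in which the chaperone median was low, and Fos and Jund were high there. The part of cell handling in any of these levels was not tested.

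Of 14 other bZIP genes edgeR called 0 in each comparison (4, 7 and 1 at an unadjusted p under 0.05), with medians of -0.21 in Cis_KO against WT, 0.46 in Cis_Stat6_DKO against Cis_KO and 0.11 in Cis_Stat6_DKO against WT. Without Cis_KO replicate 2 the first 2 medians were -0.15 and 0.20, and that library was the farthest for 9 of the 14 genes. Mafg, a small MAF protein and partner of NRF2, was at 73.7 and 84.8 CPM in Cis_Stat6_DKO, 36.9 and 31.6 CPM in Cis_KO, and 80.1 and 74.5 CPM in WT, with edgeR adjusted p of 0.0725 in Cis_Stat6_DKO against Cis_KO and 0.0967 in Cis_KO against WT (0.0226 and 0.0399 without Cis_KO replicate 2). Ddit3 (CHOP), a dimer partner of C/EBP proteins in the unfolded protein response, was at 15.5 and 20.6 CPM in Cis_Stat6_DKO, 7.88 and 10.2 CPM in Cis_KO, and 15.0 and 15.0 CPM in WT. Both were lowest in the 2 Cis_KO libraries. Of the EGR relatives and the NAB corepressors that bind EGR proteins, 3 of 4 were tested and edgeR called 0 in each comparison (2, 2 and 0 at an unadjusted p under 0.05). Nab1 was at 50.4 and 68.6 CPM in Cis_Stat6_DKO, 36.6 and 24.3 CPM in Cis_KO, and 48.6 and 49.3 CPM in WT, whereas Nab2, itself a target of EGR1, was at 51.5 and 35.1 CPM in Cis_Stat6_DKO, 58.9 and 76.6 CPM in Cis_KO, and 39.6 and 44.7 CPM in WT. The Cis_KO libraries were thus lowest for Nab1 and highest for Nab2. The median of the 3 tested genes was -0.28 in Cis_KO against WT, 0.20 in Cis_Stat6_DKO against Cis_KO and 0.04 in Cis_Stat6_DKO against WT. Without Cis_KO replicate 2 the first 2 medians were -0.36 and 0.27.

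Upstream of the members, edgeR called 0 of 22 kinases and ternary complex factors in each comparison (1, 1 and 1 at an unadjusted p under 0.05), with log2 fold changes between -0.98 and 0.60 and medians of -0.05 in Cis_KO against WT, -0.06 in Cis_Stat6_DKO against Cis_KO and -0.07 in Cis_Stat6_DKO against WT. Without Cis_KO replicate 2 the first 2 medians were 0.03 and -0.14. Of the 22 genes, the 2 with the smallest adjusted p were Mrtfa and Mrtfb, coactivators of serum response factor. Mrtfa was at 50.9 and 40.3 CPM in Cis_Stat6_DKO, 75.9 and 104 CPM in Cis_KO, and 75.4 and 66.1 CPM in WT, and Mrtfb was at 19.95 and 32.8 CPM in Cis_Stat6_DKO, 36.2 and 47.5 CPM in Cis_KO, and 37.6 and 36.9 CPM in WT. Transcripts of kinases say nothing of their activity.

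Downstream, 15 genes known to carry AP-1 sites in macrophages were listed and 13 were tested. In Cis_KO against WT edgeR called 1, which fell (0.274% of all genes called). At an unadjusted p under 0.05, 5 were lower and 1 higher there (11.1% of all genes). In Cis_Stat6_DKO against Cis_KO edgeR called 2, which rose (0.358%). At an unadjusted p under 0.05, 7 were higher and 0 lower there (18.3%). In Cis_Stat6_DKO against WT edgeR called 0 (0.131%), with 5 at an unadjusted p under 0.05 (5.36%). Cxcl2, a neutrophil chemokine, was at 51.8 and 63.9 CPM in Cis_Stat6_DKO, 2.55 and 3.01 CPM in Cis_KO, and 26.0 and 26.2 CPM in WT. It fell by 3.23 log2 units in Cis_KO against WT (edgeR adjusted p = 0.0113) and rose by 4.38 log2 units in Cis_Stat6_DKO against Cis_KO (edgeR adjusted p = 0.00374). Il1b, the interleukin-1 beta gene, was at 84.7 and 64.5 CPM in Cis_Stat6_DKO, 5.77 and 4.50 CPM in Cis_KO, and 15.4 and 20.4 CPM in WT. It rose by 3.86 log2 units in Cis_Stat6_DKO against Cis_KO (edgeR adjusted p = 0.00937), and its log2 fold change in Cis_KO against WT was -1.80 (edgeR adjusted p = 0.0707). Both genes were lowest in the 2 Cis_KO libraries, as Atf3 and Egr1 were, and their log2 fold changes in the comparisons with Cis_KO were larger than those of any member. Without Cis_KO replicate 2, Cxcl2 was called in Cis_KO against WT (edgeR adjusted p = 0.00146) and both genes in Cis_Stat6_DKO against Cis_KO (edgeR adjusted p = 3.70e-04 and 0.00166). The Cxcl2 call in Cis_KO against WT missed the threshold without any 1 of the WT or Cis_Stat6_DKO libraries (edgeR adjusted p = 0.0525 to 0.0585), as did the Il1b call without Cis_Stat6_DKO replicate 1 (edgeR adjusted p = 0.0579) or replicate 2 (edgeR adjusted p = 0.074). Of the 11 alveolar macrophage markers, 2 (Fabp4 and Marco) were also lowest in both Cis_KO libraries and 2 (Ear2 and Cidec) were highest in both. Ear2 was at 1254 and 1103 CPM in Cis_Stat6_DKO, 1895 and 2168 CPM in Cis_KO, and 1204 and 1521 CPM in WT. Cidec was at 208 and 135 CPM in Cis_Stat6_DKO, 339 and 282 CPM in Cis_KO, and 256 and 281 CPM in WT. Fabp4 was at 216 and 390.0 CPM in Cis_Stat6_DKO, 91.4 and 143 CPM in Cis_KO, and 191 and 198 CPM in WT, and Marco was at 1589 and 2249 CPM in Cis_Stat6_DKO, 637 and 889 CPM in Cis_KO, and 913 and 1259.9 CPM in WT. The neutrophil receptor gene Cxcr2 was at 10.4 and 10.1 CPM in Cis_Stat6_DKO, 2.94 and 4.11 CPM in Cis_KO, and 3.45 and 3.19 CPM in WT. Csf3r, also a neutrophil marker, was instead highest in WT. It was at 64.2 and 53.9 CPM in Cis_Stat6_DKO, 61.8 and 61.1 CPM in Cis_KO, and 116 and 113 CPM in WT. Of the 9 neutrophil markers, 7 were higher and 2 lower in Cis_Stat6_DKO against WT, with a median log2 fold change of 1.24. Of all 16765 genes, 8316 were higher there. At an unadjusted p under 0.05, 4 of these markers were higher and 1 lower (5.36% of all genes), and edgeR called 0. The part of macrophages and neutrophils in the levels of Cxcl2, Il1b and the members was not tested. Many other factors are known to act on these genes, and no binding was measured here.

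**Figure D5:**
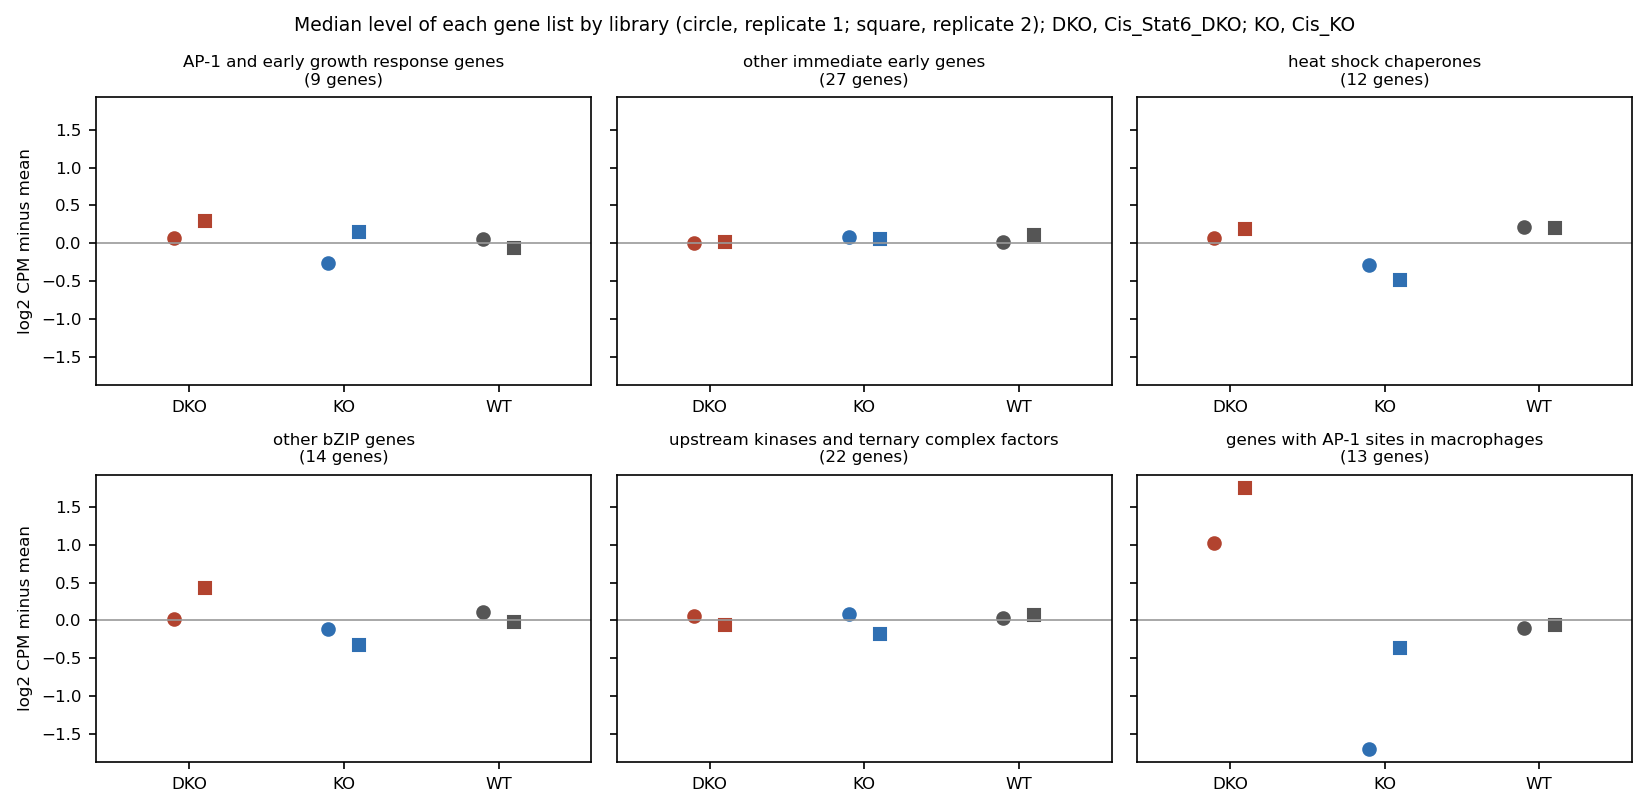
Points give the median over each gene list of log2 CPM minus the mean of the 6 libraries, with 1 point per library, Cis_Stat6_DKO (DKO) left, Cis_KO (KO) centre and WT right. The 27 other immediate early genes stay between 0.00 and 0.11 in all 6 libraries, the 12 chaperones are at -0.29 and -0.48 in Cis_KO, and the 13 genes with AP-1 sites are at 1.02 and 1.75 in Cis_Stat6_DKO and -1.70 and -0.37 in Cis_KO.

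Genes whose levels over the 6 libraries lay closest to those of a member were found among 9322 genes of at least 5 CPM by the root mean square difference of centred log2 CPM, a description over 6 libraries of 3 genotypes. For Atf3, whose own spread was 0.75 log2 units, they were Esd (0.15), Gbp6 (0.16) and Ifrd1 (0.16). Esd was at 392 and 605 CPM in Cis_Stat6_DKO, 175 and 175 CPM in Cis_KO, and 386 and 354 CPM in WT. For Egr1 (spread 0.80) they were Pcx (0.21), Prnp (0.25) and Gdf15 (0.28), and for Egr3 (spread 0.94) Il20rb (0.35), U2af1l4 (0.43) and Kcnq1ot1 (0.47). For Fos and Jun (spread 0.24 each), which varied less, the nearest were Rp9 (0.06), Med22 (0.06) and Gpr180 (0.07), and Cd300a (0.08), Gtf2a1 (0.08) and Mettl25 (0.09). The members themselves were left out of the genes compared, and the 5 lists had no gene in common.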

How the data were processed

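RNA of BALF cells from 6 mouse libraries was sequenced. The authors deposited for each library raw read counts per gene, which are whole numbers without normalization, and values named FPKM per the file headers, a unit that divides by gene length and library total. Genome build mm10 is named by the submitters' processing notes; aligner, counter and strandedness are not given in the sources used. Rows were matched by gene_name, and coordinates were checked against GENCODE M21.

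Counts were tested in edgeR 4.0.16 (R 4.3.3) with TMM factors (0.863 to 1.077), filterByExpr and the two-sided quasi-likelihood F test, in 1 fit of all 6 libraries by genotype, without a replicate block. The filter kept 16765 of 40564 genes, and p-values were adjusted by Benjamini-Hochberg over all of them. Standard errors are the size of the log2 fold change over the square root of F, and 95% intervals use the fit's degrees of freedom. The common biological coefficient of variation was 50.3% on 3 residual degrees of freedom, which limits precision more than depth (50762354 to 65937118 reads) does for all tested members. Variance shares used log2 CPM with a prior count of 2. The scripts were tested on simulated data. DESeq2 1.42.0, limma 3.58.1 (voom, quality weights, and log2 FPKM with a pseudocount of 1 or 0.1), other filters, other scalings and leaving out each library were alternatives.

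The members, gene lists and tests were chosen with earlier results of these data known. Named genes are the members in every library, genes of each list that were called or had the 2 smallest adjusted p, Cish and Stat6, and the 3 genes of most like pattern for Fos, Jun, Atf3, Egr1 and Egr3. Ear2 and Cidec were added as the macrophage markers highest in both Cis_KO libraries. Markers of cell types other than macrophages and neutrophils are given as sums only, without named genes. Library quality weights, the single Cis_KO libraries and the FPKM separation were added after the data were seen.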

Additional observations from a re-analysis of the deposited data

How the results depend on the processing

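Of 507 log2 fold changes of members under 19 alternatives, 474 kept their direction and their side of the threshold, 15 passed it and 18 changed sign; 17 of 27 results had no change of sign. The causes were not tested. In Cis_KO against WT 2 of 9 members were called with no filter (3.9% of all genes) and 1 by DESeq2 (2.08%). In Cis_Stat6_DKO against Cis_KO 2 were called with no filter (7.02%), 3 by DESeq2 (5.94%) and 1 on log2 FPKM with a pseudocount of 1 (1.52%). In Cis_Stat6_DKO against WT 1 was called with no filter (1.47%), and for any difference among genotypes 3 with no filter (7.27%) and 2 by DESeq2 (4.87%). With each library left out in turn the 4 counts ran over 0 to 1, 0 to 3, 0 to 0 and 0 to 1; the calls came without Cis_KO replicate 1 (1, 3 and 1; 28.8%, 32.2% and 29.3% of all genes) or without replicate 2 (1 in Cis_Stat6_DKO against Cis_KO; 2.68%). The median variance share was 60.2% on log2 FPKM and 72.8% without Cis_KO replicate 2, and JUN genes made up 53.4% by counts.

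Atf3 ran from -1.50 to -0.97 in Cis_KO against WT and from 1.29 to 2.04 in Cis_Stat6_DKO against Cis_KO, and Egr1 from -1.74 to -0.74 and from 1.09 to 2.02. Changes of sign lay in uncalled differences. Junb in Cis_KO against WT was 0.00083 with at least 1 CPM in 2 libraries, and Egr3 was 0.019 with quality weights. With each library left out, Fosl2 ran from -0.26 to 0.15, Junb from -0.40 to 0.26 and Egr3 from -0.76 to 0.97 in Cis_KO against WT. In Cis_Stat6_DKO against Cis_KO Fosl2 ran from -0.38 to 0.11 and Junb from -0.15 to 0.50. In Cis_Stat6_DKO against WT Fos ran from -0.012 to 0.30, Fosl2 from -0.45 to 0.041, Jun from -0.35 to 0.10, Egr1 from -0.078 to 0.92 and Egr3 from -0.080 to 2.30.

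With the replicate block, 0 members were called and 24, 28 and 12 genes passed in the 3 comparisons, against 46, 60 and 22. Same-numbered libraries did not deviate together over all genes (correlations -0.03, 0.01 and -0.07). A pairing that acted on few genes would not show in these values, and the labels do not say whether the numbers pair libraries. DESeq2 called 546, 1557 and 321 of 26200 genes, and edgeR with no filter 1021, 1840 and 385.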

Other observations

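Junos, transcribed from the strand opposite Jun and sharing 232 exon bases with it, had 318 and 75 reads in Cis_Stat6_DKO, 23 and 0 reads in Cis_KO, and 48 and 26 reads in WT. Both Cis_Stat6_DKO libraries lay above the rest and both Cis_KO libraries below. Gm11175, opposite Jund with 877 shared bases, had 22 and 10 reads in Cis_Stat6_DKO, 10 and 0 reads in Cis_KO, and 0 and 38 reads in WT, with no order by genotype. Both were looked up after the values of the members had been seen, and without the strand of the reads their counts and those of Jun and Jund cannot be told apart.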
